A study of Mus musculus with 10 samples.

Results

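The lectin receptors described here are 6 genes of the 32285 in the count matrices: Cd209a, Cd209d and Cd209e of the CD209 family, the galactose-type lectins Clec10a and Mgl2, and the mannose receptor Mrc1. They were chosen by name, with earlier results of these data known, and their counts were read in 3 classes of barcodes. A barcode marks the RNA of 1 droplet, usually 1 cell, and a unique molecular identifier (UMI) marks 1 captured RNA molecule. Barcodes with at least 500 genes and at most 10% mitochondrial UMIs were kept. Those with at least 10 UMIs of C1qa, C1qb and C1qc, which encode the subunits of complement C1q made by tissue macrophages, were called macrophages. Of the rest, barcodes with a UMI of Ptprc, the gene of the leukocyte antigen CD45, formed the other Ptprc-positive class, and barcodes with Sox10, a transcription factor of the melanocyte lineage, and no Ptprc formed the tumor class.

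C-type lectin receptors bind sugars on glycoproteins and on microbes, and many carry their cargo into the cell for breakdown and antigen presentation. CD209 proteins, the mouse relatives of human DC-SIGN, bind mannose and fucose sugars, and Cd209a is known from dendritic cells and monocyte-derived cells. Clec10a and Mgl2 encode the galactose-type lectins of mouse macrophages and dendritic cells, and Mrc1 encodes CD206, an endocytic receptor for mannose and fucose that is widely used as a mark of macrophages exposed to IL-4 or resident in tissue.

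The libraries came from CD45+ cells sorted from SW1 tumors, a mouse melanoma grown under the skin of the flank of female C3H/HeJ mice aged 4 to 6 weeks. Each condition had 1 gene expression library: Control day 0, then both arms at day 7 and both arms at day 21, and values for the 5 libraries are given in that order with the control before L-fuc. L-fuc is the sugar L-fucose, given in the drinking water, and day 0 was the start of treatment. All mice carried the same tumor line and no transgene is named. Each library pooled tumors, 3 at day 0, and the protocols give 5 or 6 mice per arm, tumor growth of 10 days before treatment, for which the study's methods give a longer time, and a dose of 100 mM in one place and 100 nM in another. With 1 library per condition there were no replicates, so conditions have no test. Intervals are 95%, the limit given beside a count of 0 is 3 counts of the total, and both cover counting error only.

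The libraries held 1428 to 20741 barcodes and 14439185 to 119047810 UMIs, and 1182 to 17897 barcodes were kept. Macrophages numbered 456, 1772, 2071, 788 and 411. The 9 macrophage markers, 3 of which the rule used, summed to 14981 to 27877 CPM (UMIs per 1000000 UMIs of the class), against 351 to 865 in the other Ptprc-positive class. Markers of other cells were also found in the macrophage class, at 32.5 to 449 CPM for the 3 T cell genes, 12.8 to 165 for the 7 tumor genes and 0 to 3536 for the 3 red cell genes. Sox10 was found in 31.1% of macrophages in Control day 7 and in 13.9% in L-fuc day 7, and in 2.19% to 9.98% in the others. The tumor class made up 17.9% to 49.3% of the kept barcodes although the libraries are labelled CD45+. Of the kept barcodes 222 were shared between both day 7 libraries, and 36 to 306 per library were also found in another library. Doublets were not removed.

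Mrc1, and less firmly Mgl2, was higher in macrophages than in other Ptprc-positive barcodes. With all libraries summed, Cd209a, Cd209d and Clec10a had their highest level in small groups of dendritic-type barcodes. Mgl2 and Cd209e did so too, but their UMIs there came mostly from a single library each. For Cd209a, 77 of the 148 UMIs in the group of its highest level stood in 1 barcode of L-fuc day 21. In the macrophages of the 5 libraries Mrc1 was found in 105, 296, 191, 129 and 121 barcodes. These were 23.0%, 16.7%, 9.22%, 16.4% and 29.4% of the class. Its level was 98.3, 35.9, 19.5, 51.9 and 64.7 CPM. Mrc1 was thus highest at day 0 and lowest in L-fuc day 7, and neighbours in the order of levels had intervals that did not overlap, the closest being Control day 21 (47.0 to 57.3) and L-fuc day 21 (58.6 to 71.4). As a background, barcodes with at least 2 UMIs of the T cell genes Cd3d, Cd3e and Cd3g, which should lack Mrc1, held it in 14 of 330, 19 of 772 and 6 of 1115 in the first 3 libraries. They held none in 53 in Control day 21, which allows a share of up to 5.66%, and none in 27 in L-fuc day 21, which allows up to 11.1%. The median macrophage held 5737 to 7887.5 UMIs and the median T cell barcode 3444.5 to 8370. With every barcode thinned to 1000 UMIs, which left out 2 to 15 macrophages per library, Mrc1 was found in 5.32%, 4.41%, 1.93%, 2.85% and 12.5% of macrophages, again lowest in L-fuc day 7. For day 0 against L-fuc day 21, and for both controls at day 7 and day 21, these shares went against the CPM, so no order was read between them.

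Mgl2 was likewise lowest in L-fuc day 7. It was found in 54, 65, 50, 26 and 55 macrophages, or 11.8%, 3.67%, 2.41%, 3.30% and 13.4%. Its level was 49.8, 9.17, 5.59, 12.1 and 49.9 CPM. Day 0 and L-fuc day 21 lay together at the top and could not be separated, and after thinning the shares were 2.22%, 0.791%, 0.483%, 0.906% and 5.64%. T cell barcodes held Mgl2 in 0.538% to 1.89% of cases in the 4 libraries where it was found. Mgl2 shares sequence with Clec10a, its neighbour on chromosome 11: 242 stretches of 50 bases are identical between their transcripts, 13.5% of those of Mgl2 and 8.63% of those of Clec10a. The effect of this on the UMI counts of the pair was not tested. None of the other members shared a stretch of that length.

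**Figure D1:**
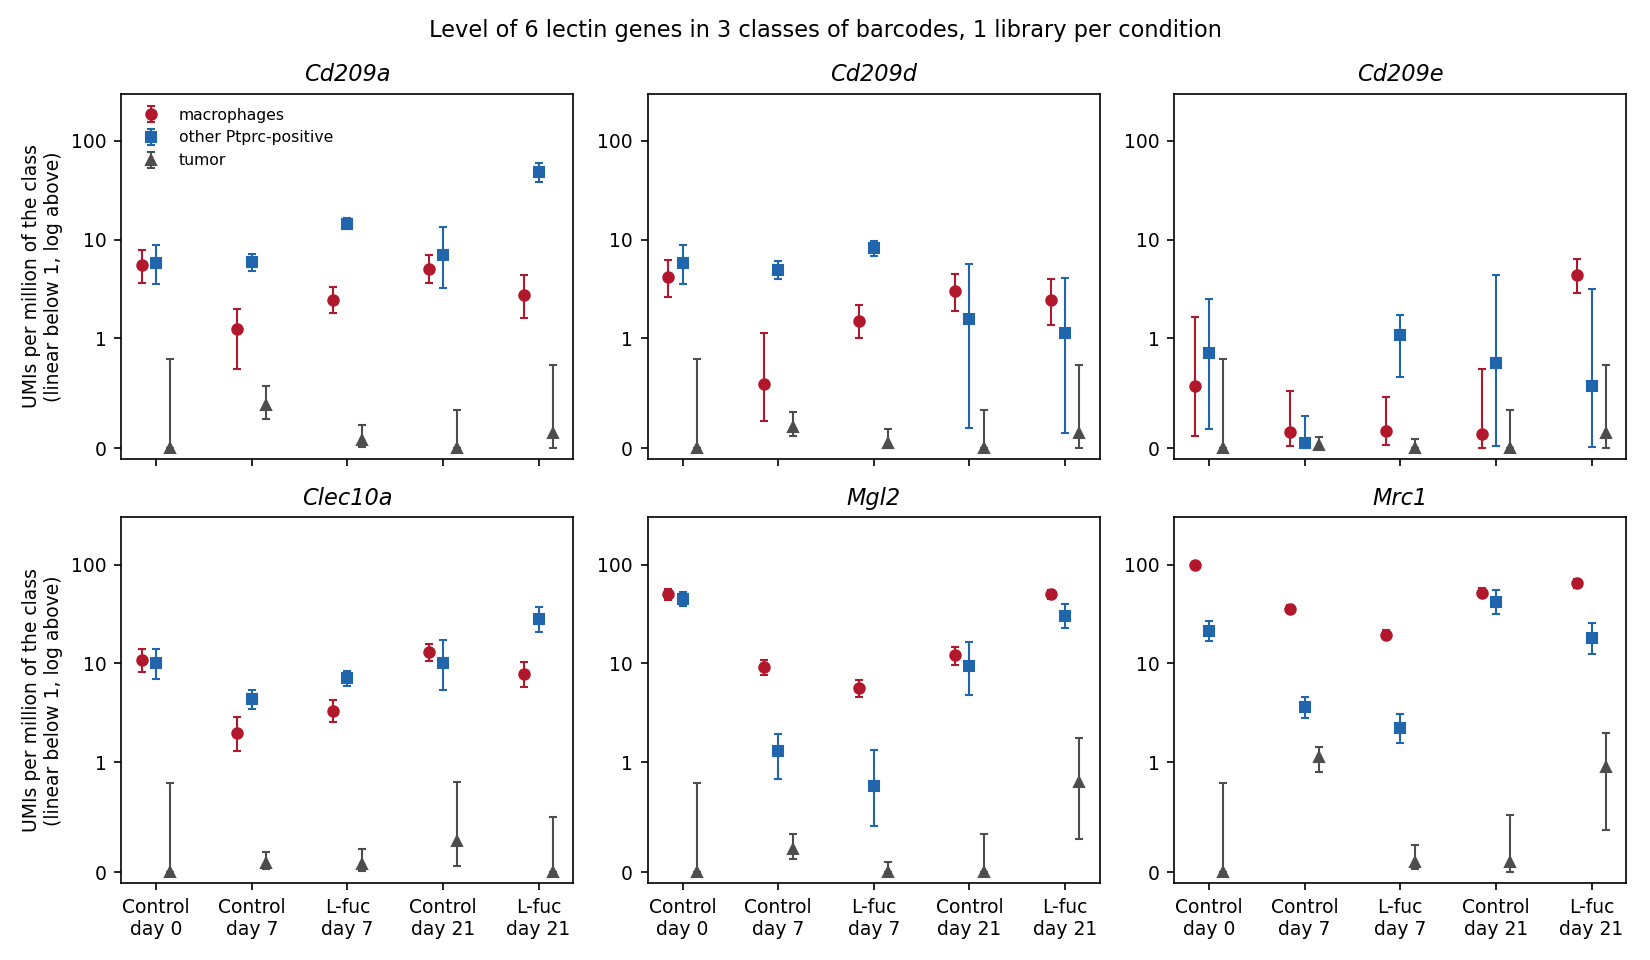
Level of each member in CPM (vertical axes, linear below 1 and logarithmic above) in the macrophages, other Ptprc-positive and tumor classes of the 5 libraries (horizontal axes), with 95% Poisson intervals as bars. Mrc1 in macrophages lay between 19.5 and 98.3, and in tumor barcodes at 1.14 or less.

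The promoters of Mgl2 and Mrc1 are printed because these members set the macrophage pattern and were found in the same barcodes. Each stretch runs from 250 bases before to 50 after the RefSeq gene start on GRCm38.p6, chr11:70130107-70130406 on the plus strand for Mgl2 and chr2:14229164-14229463 on the plus strand for Mrc1. Capitals mark GAGGAA, the core letters bound by the myeloid factor PU.1, on either strand. These letters stand in 28.3% of the 32851 promoters of the same length.
Mgl2 promoter: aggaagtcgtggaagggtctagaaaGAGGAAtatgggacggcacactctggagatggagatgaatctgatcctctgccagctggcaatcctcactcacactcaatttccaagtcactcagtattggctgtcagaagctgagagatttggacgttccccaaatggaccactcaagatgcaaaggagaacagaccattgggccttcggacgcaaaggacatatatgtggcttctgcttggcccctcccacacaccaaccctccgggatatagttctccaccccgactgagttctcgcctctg
Mrc1 promoter: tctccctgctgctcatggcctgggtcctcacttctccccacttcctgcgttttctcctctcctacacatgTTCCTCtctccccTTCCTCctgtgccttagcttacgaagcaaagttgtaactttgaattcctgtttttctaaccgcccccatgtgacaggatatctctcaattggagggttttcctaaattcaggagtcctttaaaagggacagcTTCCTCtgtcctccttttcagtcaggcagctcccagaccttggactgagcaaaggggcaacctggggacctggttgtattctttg
Mgl2 held 1 match, on the same strand, and Mrc1 held 3, each on the opposite strand. The STAT6 motif (TTC, 4 bases of any kind, GAA), bound by the factor that IL-4 activates, is in 6.95% of promoters and was in neither of these. A match is a description of letters and not a binding site. The genes lie at chr11:70130329-70137550 (Mgl2), chr11:70156197-70170834 (Clec10a) and chr2:14229392-14332057 (Mrc1), all protein-coding and on the plus strand, with 18646 bases between Mgl2 and Clec10a. For Clec10a no promoter is shown.

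Macrophages were compared with the other classes within each of the 5 libraries by edgeR's quasi-likelihood test with the library as a block and Benjamini-Hochberg adjustment over all genes. Over 12222 genes, 16.8% were higher and 17.1% lower in macrophages than in other Ptprc-positive barcodes at an adjusted p under 0.05, and 2 of the 5 members tested were called, both higher. Mrc1 was higher by a log2 difference of 2.41 (SE 0.44, adjusted p = 0.00861, n = 5 libraries). Its level in the other class was 21.3, 3.60, 2.24, 42.1 and 18.0 CPM. Mrc1 was higher in macrophages in 5 of 5 libraries, by the least in Control day 21. Mgl2 was higher by 1.49 (SE 0.48, adjusted p = 0.0492), close to the threshold, and its call was lost in 9 of 18 alternative settings, among them those without Control day 7, L-fuc day 7, Control day 21 or L-fuc day 21 (adjusted p = 0.0637 to 0.0849, edgeR). Without the library block neither gene was called (adjusted p = 0.122 for Mrc1 and 0.682 for Mgl2). Its levels in the other class were 45.2, 1.31, 0.786, 9.35 and 30.4, so that at day 0 both classes were alike.

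Cd209a leaned the other way. Its log2 difference between macrophages and other Ptprc-positive barcodes was -1.78 (SE 0.59, adjusted p = 0.0520), just short of the threshold, and 8 of 18 alternative settings called it, one of them without Control day 0 (-2.21, adjusted p = 0.0395). Cd209d gave -1.01 (adjusted p = 0.216) and Clec10a -0.55 (adjusted p = 0.255) in the same test, and neither was called. Cd209e had too few UMIs to be tested.

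Tumor barcodes are a class that should lack the members. Over 12599 genes 37.1% were higher and 35.3% lower in macrophages, and 4 of 4 members tested were higher (edgeR, library block). The log2 differences were 6.97 for Mgl2 (SE 0.56, adjusted p = 0.000195), 6.95 for Mrc1 (SE 0.63, adjusted p = 0.000264), 6.01 for Clec10a (SE 0.48, adjusted p = 0.000195) and 4.43 for Cd209a (SE 0.83, adjusted p = 0.00363). A member passed the filter on low counts here mainly through macrophages, which nearly fixes its direction, and Cd209d and Cd209e did not pass. In tumor barcodes no member exceeded 1.14 CPM, reached by Mrc1 in Control day 7, where 77 of 8822 tumor barcodes held it.

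The CD209 members lie within 135159 bases of chromosome 8 on GRCm38. All are protein-coding and on the minus strand: Cd209a at chr8:3743397-3748984, Cd209e at chr8:3847965-3854309 and Cd209d at chr8:3871824-3878555. Their promoters are printed because Cd209a and Cd209d were found in the same barcodes and the same small groups. The stretches are chr8:3748935-3749234, chr8:3878450-3878749 and chr8:3854237-3854536 in RefSeq on GRCm38.p6, minus strand, from 250 bases before to 50 after the gene start. Capitals mark a run of 12 bases present in all 3.
Cd209a promoter: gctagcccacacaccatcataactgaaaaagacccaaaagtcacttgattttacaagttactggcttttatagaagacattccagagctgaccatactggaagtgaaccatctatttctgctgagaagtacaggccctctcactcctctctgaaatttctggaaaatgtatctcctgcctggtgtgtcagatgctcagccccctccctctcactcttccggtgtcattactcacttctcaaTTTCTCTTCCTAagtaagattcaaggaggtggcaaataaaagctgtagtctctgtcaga
Cd209d promoter: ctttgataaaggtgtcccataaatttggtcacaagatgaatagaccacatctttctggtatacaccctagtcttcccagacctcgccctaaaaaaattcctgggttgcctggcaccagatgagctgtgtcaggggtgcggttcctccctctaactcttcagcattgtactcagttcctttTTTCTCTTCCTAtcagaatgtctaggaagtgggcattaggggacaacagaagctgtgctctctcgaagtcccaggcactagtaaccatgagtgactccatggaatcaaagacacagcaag
Cd209e promoter: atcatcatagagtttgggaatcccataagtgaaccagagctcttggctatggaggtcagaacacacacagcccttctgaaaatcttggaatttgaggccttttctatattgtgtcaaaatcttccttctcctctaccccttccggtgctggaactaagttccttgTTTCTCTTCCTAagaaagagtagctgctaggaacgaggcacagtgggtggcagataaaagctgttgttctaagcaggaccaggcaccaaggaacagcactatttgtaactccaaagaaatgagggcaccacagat
The shared run starts 9 bases before the gene start in Cd209a, 70 before in Cd209d and 85 before in Cd209e. It was found on either strand in 9 of 32851 promoters, or 0.0274%. The run was picked as the longest stretch common to the CD209 promoters, which are among those 9. Its presence in them was thus fixed in advance, and the share is no test of it. The STAT6 motif stood once, in Cd209e, overlapping the end of the shared run, and GAGGAA stood once, in Cd209d, on the opposite strand.

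In macrophages the CD209 genes were found in few barcodes. Cd209a was found in 5, 12, 13, 6 and 15 macrophages, with 29, 17, 46, 39 and 17 UMIs. The share was 0.677% in Control day 7 and 0.628% in L-fuc day 7, whereas T cell barcodes held it in 0.777% and 1.52%. That T cell group was itself not free of the gene, with 86 UMIs in 17 barcodes in L-fuc day 7. Barcodes with a sequenced T cell receptor and no C1q UMI, a smaller background, held Cd209a in 1 of 143 in Control day 7 (0.699%) and 4 of 369 in L-fuc day 7 (1.08%), with a median of 3053 and 4244 UMIs. The day 7 shares of Cd209a in macrophages were no higher than in either background, and no expression was read from them. Cd209d, a mannose-binding relative of Cd209a, was found in 6, 8, 9, 8 and 9 macrophages, or 1.32%, 0.451%, 0.435%, 1.02% and 2.19%. Its day 7 shares were below those of T cell barcodes, 1.30% and 1.08%. In the receptor-bearing barcodes without C1q Cd209d was found in 1 of 827 over all libraries (0.121%), and in at most 0.271% of a library. That background is 1 barcode and was shallower at day 7 than macrophages, whose medians were 6285 and 5757 UMIs. It cannot place the day 7 shares of Cd209d above background. Cd209e, a further gene of the cluster, had 3, 2, 3, 1 and 27 UMIs. Clec10a was found in 24, 24, 41, 26 and 22 macrophages, or 5.26%, 1.35%, 1.98%, 3.30% and 5.35%, at 10.7, 1.96, 3.33, 12.98 and 7.75 CPM. In Control day 7 its share was below that of T cell barcodes, 1.68%, and in L-fuc day 7 it was close to theirs, 1.61%. The receptor-bearing barcodes without C1q held Clec10a in 6 of 827 (0.726%), Mrc1 in 12 (1.45%) and Mgl2 in 0, which allows up to 1.07% to 25% by library.

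Outside macrophages, the members were read in smaller groups, named here by the genes that define them. Each gate took only the other Ptprc-positive barcodes left by the gates before it. The order was T cell, B cell, natural killer cell, neutrophil, mast cell or basophil, Siglech, Flt3 and Ly6c2. A Siglech or Flt3 barcode that met the T cell rule was thus counted as a T cell barcode. With all libraries summed, the 101 barcodes with at least 2 UMIs of Siglech, a lectin of plasmacytoid dendritic cells, held Cd209a at 185, Cd209d at 201 and Clec10a at 176 CPM, against 2.87, 1.86 and 5.71 in macrophages. The 49 barcodes with Flt3, the growth factor receptor of dendritic cells, and at least 10 UMIs of class II genes held Cd209a at 309, Clec10a at 123, Mgl2 at 58.5 and Cd209e at 31.3, against 17.4 for Mgl2 and 0.70 for Cd209e in macrophages. Single libraries carried these sums: without L-fuc day 21 Cd209a was at 182 and Clec10a at 43.6, without Control day 0 Mgl2 was at 25.7, and without L-fuc day 7 Cd209e was at 2.99. Between libraries the level of Cd209a in these Flt3 barcodes ranged from 23.4 to 862. In the Siglech group, which stood almost wholly in the day 7 libraries, leaving out a library kept Cd209a between 137 and 246. The 156 barcodes with at least 2 UMIs of Ly6c2, a surface antigen of inflammatory monocytes, held Mrc1 at 34.5 and Cd209a at 48.1. Without L-fuc day 7 Cd209a was at 16.8, and without Control day 21 Mrc1 was at 21.4. In barcodes that passed no gate, the level of Mgl2 ranged between libraries from 0.400 to 368, highest at day 0, where macrophages were at 49.8. That of Mrc1 ranged from 1.80 to 105. The medians over libraries were 5.26 for Mgl2 and 59.9 for Mrc1, against 12.1 and 51.9 in macrophages. With all libraries summed, Mrc1 was at 6.97 in these barcodes and at 42.3 in macrophages. The order of these groups for Mrc1 thus differed between the sum and the median.

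**Figure D2:**
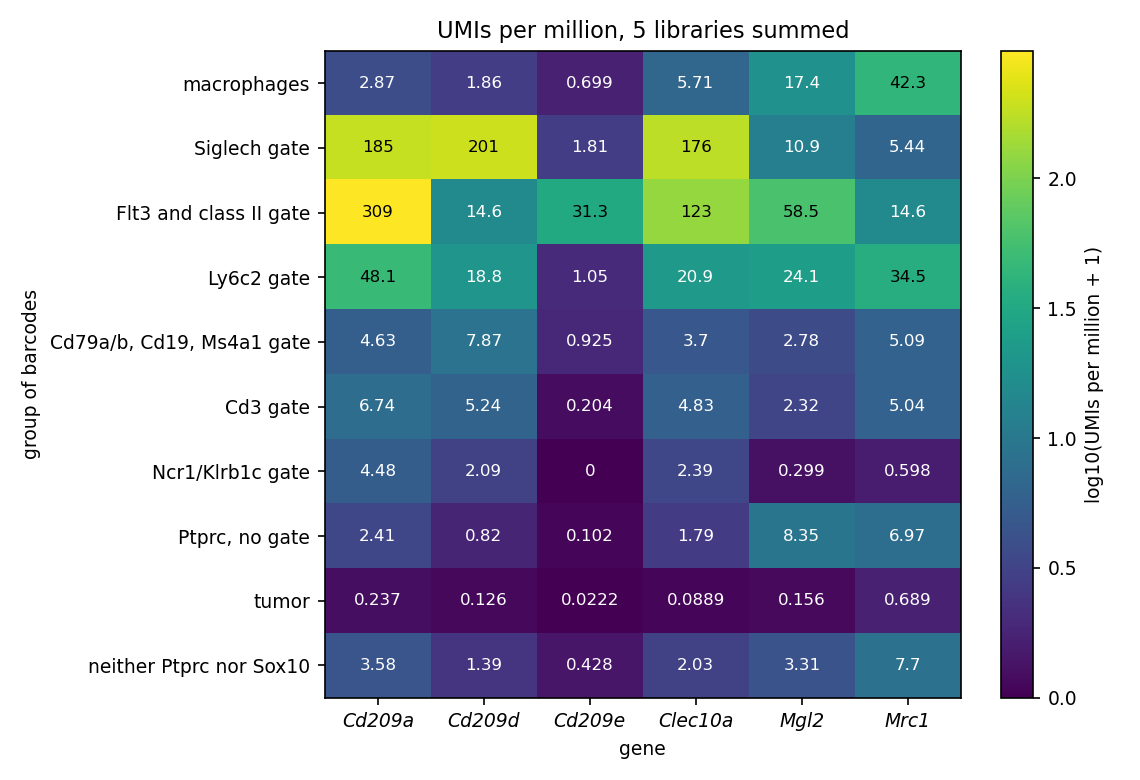
Level of each member in CPM, all 5 libraries summed, in macrophages, in the gated groups of other Ptprc-positive barcodes, in tumor barcodes and in barcodes of neither kind, with colour on a log10 scale of CPM plus 1. Cd209a, Cd209d and Clec10a peaked in the Siglech and Flt3 groups, at 123 to 309 apart from Cd209d in the Flt3 group (14.6), Mgl2 in the Flt3 group, at 58.5, and Mrc1 in macrophages, at 42.3.

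The Siglech group was large enough to compare at day 7. Cd209a was found in 15 of 67 barcodes in Control day 7 (22.4%, interval 13.1% to 34.2%) and in 11 of 31 in L-fuc day 7 (35.5%, 19.2% to 54.6%). Cd209d was found in 31.3% and 54.8%, and Clec10a in 40.3% and 58.1%. The shares were higher in L-fuc day 7 for these 3 members, with overlapping intervals, and the L-fuc barcodes were also deeper, with a median of 5550 UMIs against 3540. The part of depth in this difference was not tested. Siglech, which defined the group, and the other markers of plasmacytoid dendritic cells, Bst2 and Ccr9, were present in both libraries. Their sum was 3281 and 4937 CPM, against 487 and 708 in the tumor barcodes of these libraries. In the same Siglech barcodes the monocyte markers summed to 2003 and 3640 CPM and the macrophage markers to 1049 and 614. Dendritic cell markers summed to 361 and 341.

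Members were often found in the same barcodes. Over the 5498 macrophages, 144 of the 250 barcodes with Mgl2 also held Mrc1 (57.6%, 51.2% to 63.8%), against 13.3% of those without Mgl2. The odds ratio over 5 strata of total UMIs within each library, a description with no test since cells are not replicates, was 5.64. Within libraries the share of Mgl2 barcodes with Mrc1 was 68.5%, 40%, 56%, 61.5% and 67.3%, lowest in Control day 7. The largest odds ratios were those of Cd209a with Cd209d (23.8, 18 barcodes with both of 51 and 40), of Cd209a with Clec10a (21.1, 21 with both) and of Cd209d with Clec10a (20.5, 18 with both). The sizes and their order depended on the barcodes used: Cd209a with Cd209d gave 78.2 at a C1q minimum of 20, where Cd209d with Cd209e was largest (104), and 13.4 with mixed barcodes left out, where Cd209a with Clec10a was at 18.96. Clec10a and Mgl2 met in 50 barcodes (8.73), and the part of their shared sequence in this was not tested. All 15 pairs had an odds ratio of 2 or more, from 2.72 for Cd209e with Mrc1, and after thinning 10 of 10 pairs with enough barcodes did. The thinned values rest on few barcodes with both genes, from 1 for Cd209d with Clec10a to 14 for Mgl2 with Mrc1. Cd209a met Clec10a in 2 and Cd209d in 4. Within single libraries some pairs did not: Clec10a with Mrc1 gave 0.914 and Cd209a with Mgl2 gave 0 in Control day 7, and Cd209a with Mrc1 gave 0.938 in L-fuc day 7. Cd209e with Mrc1 gave 1.91 in L-fuc day 21, the only library with enough barcodes for this pair.

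**Figure D3:**
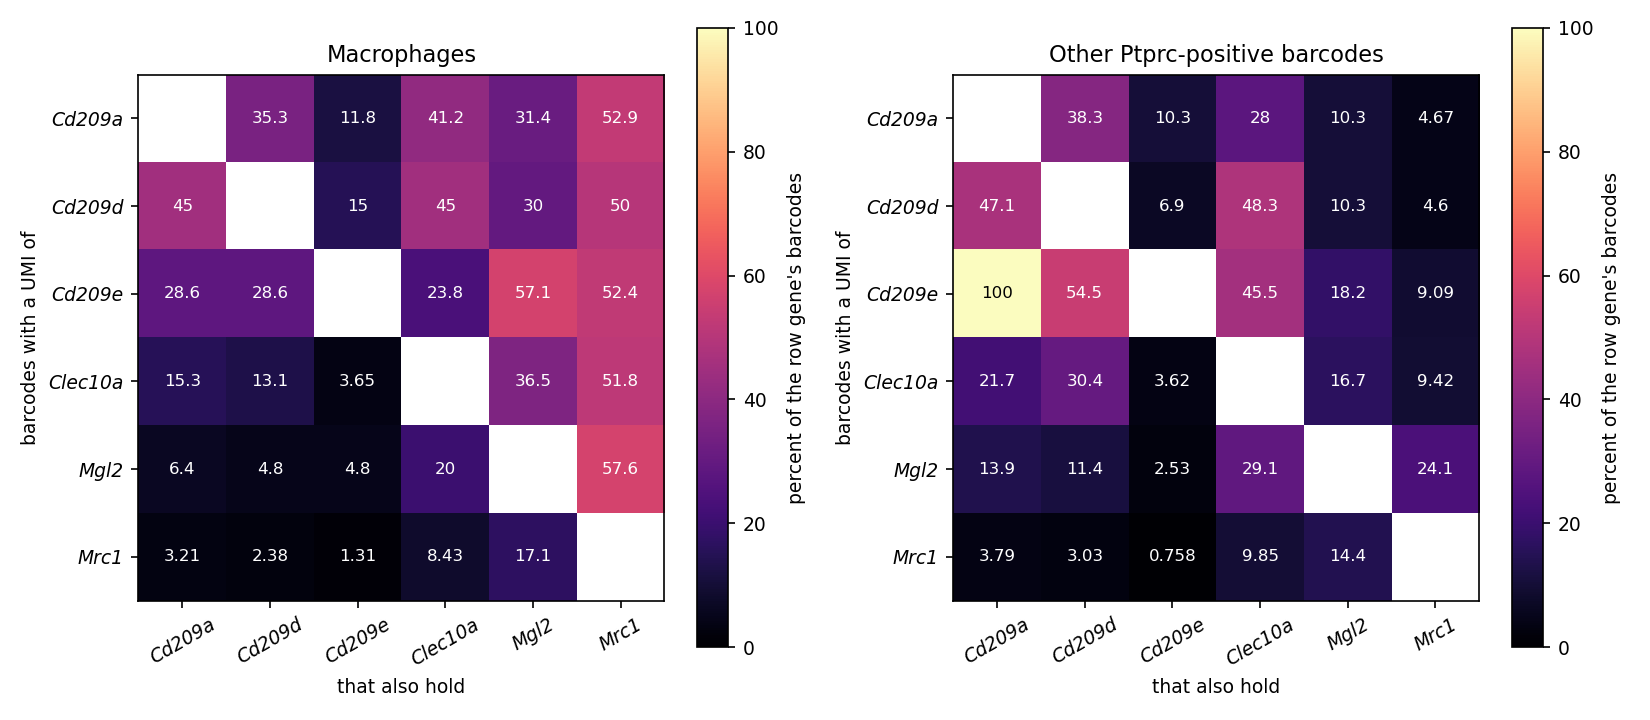
Percent of the barcodes with a UMI of the row gene that also held the column gene, in macrophages and in other Ptprc-positive barcodes, on a colour scale from 0 to 100. In macrophages 57.6% of Mgl2 barcodes held Mrc1, and in the other class 47.1% of Cd209d barcodes held Cd209a.

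In the other Ptprc-positive class the CD209 genes were also found together. Of 107 barcodes with Cd209a and 87 with Cd209d, 41 held both (odds ratio 76.9), which was 38.3% of the Cd209a barcodes against 35.3% in macrophages, and Cd209d and Clec10a met in 42 (59.5). All 11 barcodes with Cd209e held Cd209a. Mgl2 and Mrc1 met in 19 of 79 and 132 barcodes (6.20). Macrophages with at least 1 member made up 27.9%, 20.3%, 11.8%, 18.5% and 36.5% of the class in the 5 libraries, and those with at least 2 made up 11.4%, 2.48%, 2.32%, 3.81% and 13.4%. Barcodes with several members were thus most frequent at day 0 and in L-fuc day 21. These libraries also had the deepest macrophages, with medians of 7887.5 and 7562 UMIs against 5737 to 6285 in the others. The part of depth in these shares was not tested.

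At day 7 the macrophage ratios of L-fuc over control were negative for Mrc1 and Mgl2 and positive for Cd209a, Cd209d and Clec10a. Of 14617 genes, 4.44% were higher and 5.73% lower by at least 2-fold, with a median log2 ratio of -0.14, and 1 of 5 members tested passed, Cd209d, higher. Mrc1 gave a log2 ratio of L-fuc over control of -0.88 (-1.08 to -0.68) and Mgl2 -0.71 (-1.10 to -0.33), both short of 2-fold. Cd209d gave 1.25 (0.20 to 2.72) from 28 against 8 UMIs, while its share of barcodes was nearly the same, 9 of 2071 against 8 of 1772. Cd209a gave 0.95 (0.17 to 1.90) and Clec10a 0.73 (0.09 to 1.47), and Cd209e had 3 against 2 UMIs. The day 7 shares of Cd209a and Cd209d in macrophages were not placed above background, so their ratios were not read as a change in expression. Without the barcode holding the most UMIs in each library, Cd209a gave 0.46 (-0.47 to 1.56) and Cd209d 1.02 (-0.14 to 2.63). Leaving out macrophages that also held Sox10 or T cell, B cell or neutrophil markers gave -0.95 (-1.20 to -0.70) for Mrc1 and -1.02 (-1.55 to -0.50) for Mgl2, which then passed 2-fold, and left Cd209d with 4 against 3 UMIs. Thinned to 1000 UMIs per barcode, Mrc1 gave -1.23 (-1.78 to -0.72) and passed 2-fold.

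Of 16 genes that often go with Mrc1 in macrophages 14 were tested, and 7 of these were lower by at least 2-fold in L-fuc day 7 and 0 higher, with a median log2 ratio of -0.99. Folr2, the folate receptor of resident macrophages, had 48 UMIs against 157 (log2 ratio -2.13), and Gas6, a ligand of TAM receptors, had 52 against 135 (-1.80). Ccl8, a chemokine gene, gave 0.10 with 16666 against 11455 UMIs. Of 10 genes of the IL-4 and IL-13 axis, 2 were higher, both of them cytokines: Il13 had 106 UMIs against 5, and Il4 had 34 against 0. The receptor gene Il4ra (-0.28) and the factor gene Stat6 (0.07) were not past 2-fold. Mast cell and basophil markers in these macrophages summed to 40.02 CPM in L-fuc day 7 and 6.7 in Control day 7, and T cell markers to 449 and 244, and their part in the cytokine counts was not tested.

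**Figure D4:**
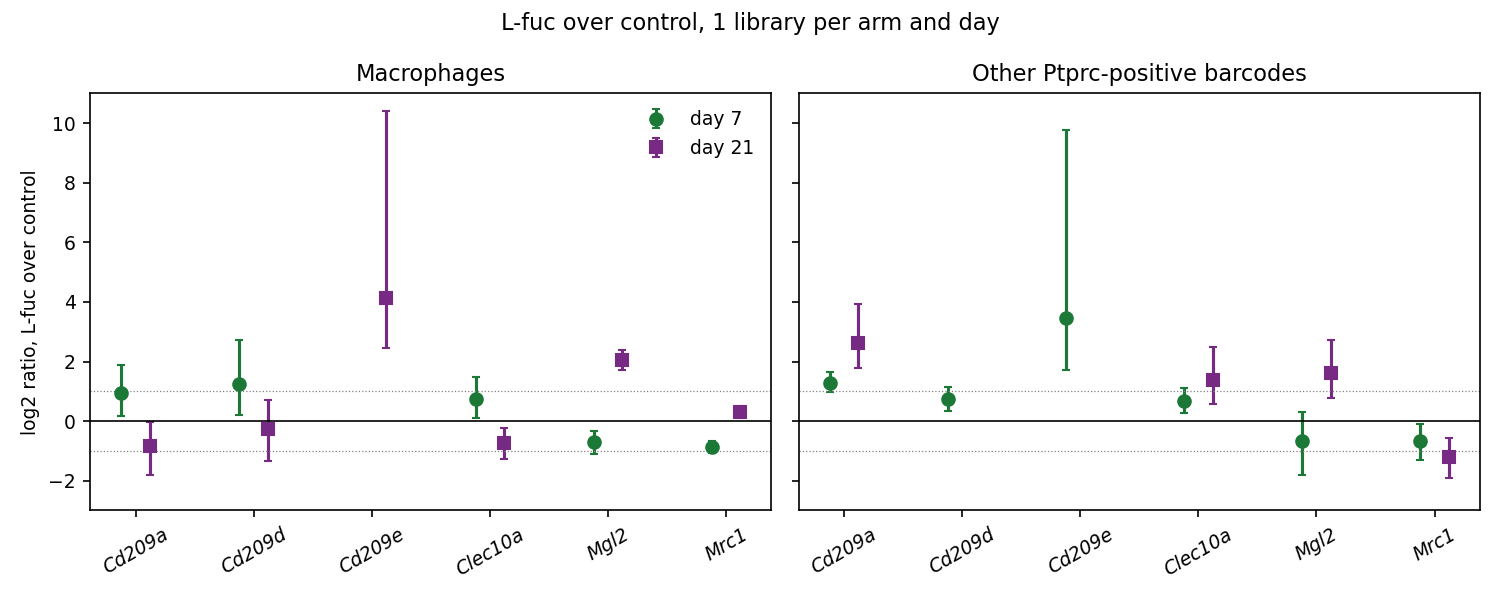
Log2 ratio of L-fuc over control for each member at day 7 (circles) and day 21 (squares), in macrophages and in other Ptprc-positive barcodes, with exact 95% intervals as bars, dotted lines at 2-fold and no point under 10 UMIs. Mgl2 in macrophages lay at -0.71 at day 7 and at 2.04 at day 21, and Mrc1 at -0.88 and 0.32.

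At day 21 Mgl2 was higher in L-fuc macrophages, as was Cd209e. Of 12790 genes, 5.98% were higher and 1.79% lower by at least 2-fold, with a median log2 ratio of 0.03, and 2 of 6 members were higher and 0 lower. Mgl2 gave 2.04 (1.71 to 2.40) from 309 against 93 UMIs, found in 55 of 411 macrophages against 26 of 788. Cd209e gave 4.12 (2.47 to 10.43) from 27 UMIs against 1, and 15 of the 27 came from 1 barcode. Mrc1 gave 0.32 (0.11 to 0.52), Cd209d -0.27 (-1.35 to 0.70), Clec10a -0.73 (-1.27 to -0.23) and Cd209a -0.84 (-1.80 to -0.03), none past 2-fold. Thinned to 1000 UMIs per barcode, which weighs every barcode alike, Mrc1 gave 1.44 (0.87 to 2.05) from 62 against 43 UMIs and passed 2-fold. Cd209a was found in more L-fuc barcodes, 15 against 6, but with fewer UMIs, 17 against 39, of which 18 stood in 1 control barcode.

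The L-fuc day 21 library stood apart in which macrophages held the members. In the other libraries members were found mostly in deep barcodes, but there the barcodes with Cd209a had a median of 1606 UMIs, those with Cd209d 1413, with Cd209e 1452.5 and with Mgl2 2137, against 7562 for all its macrophages. Among its 162 macrophages under 3000 UMIs, Cd209a was found in 12 (7.41%, 3.89% to 12.6%), Cd209e in 11 (6.79%), Cd209d in 8 (4.94%), Mgl2 in 28 (17.3%) and Mrc1 in 49 (30.2%). Among the 282 such macrophages of Control day 21, Cd209a, Cd209d and Cd209e were found in 0 each, which allows up to 1.06%, Mgl2 in 1 and Mrc1 in 10. In the shallow macrophages of the other libraries Cd209a and Cd209d were found in 0 of 125, 0 of 420 and 0 of 629, which allows up to 2.40%, 0.714% and 0.477%.

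**Figure D5:**
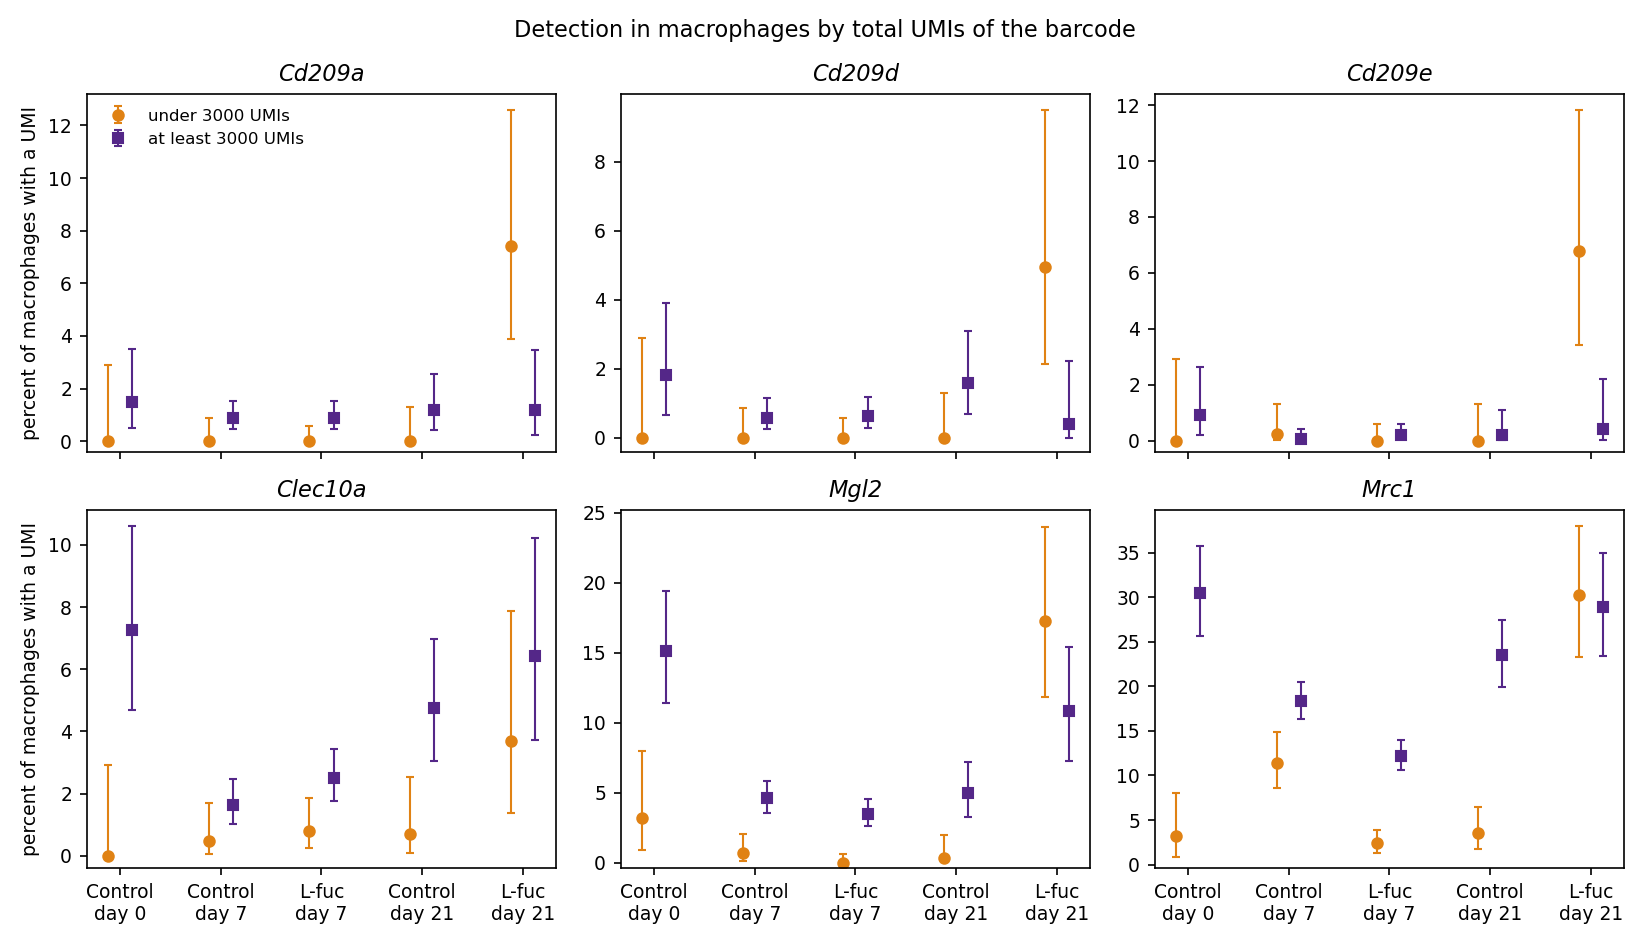
Percent of macrophages with at least 1 UMI of each member (vertical axes) in the 5 libraries, split into barcodes under 3000 UMIs (circles) and at least 3000 UMIs (squares), with exact binomial 95% intervals. In L-fuc day 21 the shallow barcodes held Mgl2 in 17.3% and Cd209e in 6.79%, against 0.355% and 0 in Control day 21.

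Among macrophages with at least 3000 UMIs, a split chosen after these values were seen, Mgl2 was still higher in L-fuc day 21. It was found in 27 of 249 (10.8%, 7.27% to 15.4%) against 25 of 506 in Control day 21 (4.94%, 3.22% to 7.21%), with a log2 ratio of 1.87 (1.54 to 2.24). Mrc1 was nearly equal in these deep barcodes, at 0.10 (-0.12 to 0.32). Cd209a was lower by -2.71 (-4.94 to -1.53) from 4 UMIs against 39, and Cd209d by -1.98 (-4.23 to -0.69) from 4 against 23. The 15 deep UMIs of Cd209e all came from 1 barcode. Shallow barcodes of no class in L-fuc day 21 also held Mgl2, in 27 of 245, and Mrc1, in 34 of 245, and tumor barcodes held Mgl2 in 6 of 302 against 0 of 473 in Control day 21, which allows up to 0.634%. Mgl2 at low depth was thus not limited to the barcodes called macrophages. Barcodes outside that class can hold C1q below the minimum, and a C1q minimum of 5 raised the macrophages of L-fuc day 21 from 411 to 566. The part of such barcodes, and that of free RNA, in the L-fuc day 21 values was not tested.

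Genes of the lists differed both ways at day 21. Of 15 genes tested that often go with Mrc1, 4 were higher and 2 lower by at least 2-fold in L-fuc macrophages. Retnla, an IL-4 response gene, had 2517 UMIs against 1221 (log2 ratio 1.36), and Cd36, a lipid scavenger receptor, 155 against 59 (1.69). Pf4, a chemokine of platelets and resident macrophages, had 231 against 612 (-1.09). Of 14 dendritic cell genes 6 were higher, led by Irf4, a transcription factor of dendritic cells that IL-4 induces, with 192 UMIs against 14 (4.00). Flt3 had 19 against 1 and Zbtb46, a factor of conventional dendritic cells, 17 against 2. Among 7 tested genes of the CD209 cluster and related lectins, 4 were lower and 1 higher, and the lower ones included Cd209f with 9 against 75 UMIs, of which 49 stood in 1 control barcode.

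In control tumors the members were lower at day 7 than at day 0 and partly higher again at day 21. From day 0 to day 7, 25.7% of 13633 genes were higher and 4.03% lower by at least 2-fold, with a median log2 ratio of 0.37, and 5 of 5 members tested were lower. The log2 ratios were -1.45 for Mrc1 (-1.63 to -1.27), -2.43 for Mgl2, -2.42 for Clec10a, -2.11 for Cd209a and -2.73 for Cd209d. Thinned to 1000 UMIs per barcode, Mrc1 gave -0.59 (-1.14 to 0.04), no longer past 2-fold. Before thinning, the distance of the members' ratios from the median of all genes was larger still. Sox10 was found in 31.1% of macrophages in Control day 7 and in 2.19% at day 0. The part of such barcodes in the median and in these ratios was not tested. Of 14 tested genes that often go with Mrc1, 12 were also lower and 0 higher, with a median of -2.10, among them Chil3, a chitinase-like gene, with 28 UMIs against 1333, and Retnla with 147 against 913.

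From Control day 7 to Control day 21, 5.13% of 13769 genes were higher and 19.4% lower, with a median log2 ratio of -0.23, and 3 of 5 members were higher by at least 2-fold. These were Clec10a (2.69), Cd209d (2.25, 1.15 to 3.73) and Cd209a (1.99, 1.18 to 2.95). Cd209a was found in 6 of 788 macrophages at day 21 and in 12 of 1772 at day 7. A large part of its 39 UMIs at day 21 stood in 1 barcode. The Control day 7 shares of these members were not placed above background, and none was read as expression for Cd209a. Mgl2 gave 0.40 (-0.01 to 0.79) and Mrc1 0.53 (0.34 to 0.73), short of 2-fold. Retnla gave 3.88 with 1221 UMIs against 147, and Cbr2, a reductase gene of resident macrophages, 2.35. These comparisons share Control day 7 and are not independent.

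In other Ptprc-positive barcodes the ratios of Cd209a and Cd209d at day 7 were positive. Those in macrophages were positive too, but there neither gene was placed above background. Of 15259 genes, 11.3% were higher and 8.64% lower by at least 2-fold in L-fuc day 7, and 2 of 6 members were higher. Cd209a gave 1.29 (0.97 to 1.63) from 240 against 113 UMIs. Cd209e gave 3.46 from 18 against 1, and 13 of the 18 stood in 1 barcode with Flt3. Cd209d gave 0.73, Clec10a 0.68, Mgl2 -0.68 and Mrc1 -0.67, and without the top barcodes Cd209a still gave 1.32 (0.98 to 1.68). Without the barcodes that also held Sox10 it gave 0.59 (0.23 to 0.97), no longer past 2-fold, from 229 against 87 UMIs in a smaller class, and Clec10a gave -0.03. Fewer cells of a type and less RNA per cell cannot be told apart in these summed values, and the class differed in makeup between the libraries, with 67 and 31 Siglech barcodes and 6 and 16 Flt3 barcodes in control and L-fuc. In the same class 5 of 10 genes of the IL-4 and IL-13 axis were higher, with Il4 at 513 UMIs against 5 and Il13 at 385 against 57, beside 45 mast or basophil barcodes in L-fuc day 7 and 6 in Control day 7.

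At day 21 single barcodes held most of the CD209 and Clec10a UMIs of this class. Of 11294 genes 3.65% were higher and 13.4% lower, and among 4 members tested 3 were higher and 1 lower. Cd209a gave 2.64 from 85 UMIs against 9, but 77 of the 85 stood in 1 barcode with Flt3, and without the top barcodes it gave 0.12 (-1.58 to 2.17). Clec10a turned from 1.40 to -0.76 (-2.33 to 0.70) without its top barcode, which held 42 of 50 UMIs. Mgl2 gave 1.61 (0.78 to 2.74) and without the top barcodes 1.93 (0.85 to 3.65), and Mrc1 gave -1.21 (-1.90 to -0.57). Mrc1 was found in more L-fuc barcodes, 17 of 202 against 7 of 204 in the control, but with fewer UMIs, 32 against 54. The larger number of Mgl2 barcodes in L-fuc stood at low depth, with 15 of 118 under 3000 UMIs against 2 of 108 in the control, while at 3000 UMIs or more the counts were 3 of 84 and 3 of 96.

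The genes whose levels most resembled each member were ranked by Pearson r over 37 profiles, the groups of at least 20 barcodes in the 5 libraries. The profiles share libraries and depth, and r is a description. They included the Siglech groups of the day 7 libraries, of 67 and 31 barcodes, but no Flt3 group. Cd209a, Cd209d and Clec10a were highest in the Siglech group of L-fuc day 7. Mgl2 was highest in the 47 barcodes of Control day 0 that passed no gate, at 368 CPM. The r values of these members thus lean on few profiles. Cd209a was closest to Smim5 (0.88) and Kmo (0.87), an enzyme of tryptophan breakdown, and among the other members to Cd209d (0.92) and Clec10a (0.84). Kmo (0.90) also led for Cd209d, and Flt3 stood among the first 5 genes for Cd209a (0.83), Cd209d (0.89) and Clec10a (0.87), whose closest gene was the antisense transcript Arhgap27os2 (0.88). Mgl2 was closest to Dcstamp (0.85), a fusion protein of osteoclasts and macrophages, and to Mrc1 among the members (0.78). Mrc1 was closest to Tbxas1 (0.89), the thromboxane synthase. Cd209e, with 56 UMIs over the profiles, was closest to Ighv14-4 (0.73), an immunoglobulin gene, and Retnla (0.67). Across single macrophages Mrc1 was most like Ccl8 (mean r over 5 libraries 0.36), Cbr2 (0.33), Folr2 (0.33), Retnla (0.31) and Gas6 (0.30), and 4 of these 5, all but Cbr2, were higher in macrophages than in other Ptprc-positive barcodes by a log2 difference over 3, while Cbr2 gave 2.17 (edgeR adjusted p = 0.0314).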

How the data were processed

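Tumors of each cohort were pooled, CD45+ cells were sorted and libraries were made with the 10x Genomics droplet system. The authors aligned the reads to mm10 and deposited, for each library, a matrix of raw UMI counts per gene and barcode, with no normalization. The submitters' processing notes name Cell Ranger 3.0 and Seurat 4.0, and the matrix headers give Cell Ranger 7.1.0. Gene positions are those of GENCODE on GRCm38 and promoter sequences those of RefSeq on GRCm38.p6.

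Barcodes with at least 500 genes and at most 10% mitochondrial UMIs were kept and classed by C1q, Ptprc and Sox10. Counts were summed per library and class. Classes were compared with edgeR 4.0.16 (TMM, filterByExpr, glmQLFit, library as a block) in R 4.3.3, and the test was checked on simulated counts. Each library gives both classes of the same pool, so the block pairs them. For conditions, each gene that reached 10 UMIs in the pair of libraries was given a log2 ratio of its CPM after adding 1 UMI to each sum, a call at 2-fold, and an exact conditional binomial interval. Shares have Clopper-Pearson intervals and levels Poisson intervals. The alternatives were DESeq2 1.42.0, no TMM, no filter, no block, each library left out, minima of 200 genes, 5 or 20 C1q UMIs, a mitochondrial maximum of 20%, mixed or shared barcodes left out and thinning to 1000 UMIs. Leaving out the top barcode, macrophages with Ptprc only, a minimum of 3000 UMIs per barcode, and gate levels without each library were added after seeing the data. Doublets were treated only through the mixed barcodes. T cell receptor libraries served only to mark receptor-bearing barcodes as a background. The members and lists were chosen with earlier results of these data known. Named genes are the members, genes of 4 lists fixed with them (those of highest level or largest ratio), and genes among the 5 most like each member. Figures were drawn with matplotlib 3.10.9, and sums and intervals were computed with scipy 1.17.1 and pandas 2.3.3 in Python 3.11.15.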

Additional observations from a re-analysis of the deposited data

Results flagged for a closer look

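For 4 members the ratio of L-fuc over control in macrophages had opposite signs at the 2 time points. Their intervals kept 1 sign at each time point. Cd209d also changed sign, from 1.25 to -0.27, but its interval at day 21 (-1.35 to 0.70) held both signs. Cd209a gave a log2 ratio of 0.95 at day 7 and -0.84 at day 21, Clec10a 0.73 and -0.73, Mgl2 -0.71 and 2.04, and Mrc1 -0.88 and 0.32. At day 21 the signs of Cd209a and Clec10a held in 9 of 10 alternative settings each, and their highest values were 0.92 and 0.34. At day 21 Mrc1 was nearly equal among macrophages with at least 3000 UMIs, with a log2 ratio of 0.10. No expression was read from the day 7 shares of Cd209a in macrophages, and those of Cd209d were not placed above background. The Clec10a share was below that of T cell barcodes in Control day 7 and close to it in L-fuc day 7. With 1 library in each arm the difference between the time points was not tested.

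Barcodes of L-fuc day 21 that fell in no class, with neither Ptprc, Sox10 nor 10 UMIs of C1q, held Mgl2 in 10.1% and Mrc1 in 13.1% of 267. In the 108 such barcodes of Control day 21 neither gene was found, which allows a share of up to 2.78%.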

How the results depend on the processing

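Macrophages against other Ptprc-positive barcodes gave 2 members higher and 0 lower. With no replicate block 0 were higher (Mrc1 adjusted p = 0.122, edgeR). The count higher was 1 without TMM, after thinning, with shared barcodes left out, with Ptprc required and at 3000 UMIs or more, and 1 to 2 with a library left out (1 without any but Control day 0). The count lower was 1 with DESeq2, without TMM, with no filter, at a C1q minimum of 5, with mixed barcodes left out or the top barcode left out, 2 at a C1q minimum of 20, and 0 to 1 with a library left out (1 without Control day 0). Thinning to 1000 UMIs left 1 member tested and higher against tumor barcodes, where 4 were higher. In macrophages at day 7, L-fuc over control gave 1 higher and 0 lower. It gave 3 higher at a C1q minimum of 5, 0 at 20, 2 with Ptprc required, 1 lower with mixed barcodes left out, and 0 higher and 1 lower after thinning. At day 21, where 0 were lower, 2 were lower at a C1q minimum of 20, with Ptprc required and at 3000 UMIs or more. After thinning 1 member was lower from day 0 to day 7 and 1 higher from day 7 to day 21 in controls, fewer being tested. In other Ptprc-positive barcodes at day 7 (2 higher, 0 lower), a C1q minimum of 20 gave 1 lower, mixed barcodes left out 1 higher and 1 lower, thinning 0 higher and the top barcode left out 1 higher. At day 21 (3 higher, 1 lower), 0 were lower at a C1q minimum of 20 and after thinning, where Mrc1 turned to 0.38, and 1 was higher without the top barcode, where Clec10a turned to -0.76. The causes of these changes were not tested. The sign for Mgl2 and Mrc1 in macrophages held under every alternative at both time points. No paired analysis was possible because each condition is 1 pool of mice, so conditions share no replicates. Counts of a few UMIs limit Cd209d and Cd209e most.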
